A study of Rattus norvegicus with 48 samples.

Results

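The 2 miRNAs described here, rno-miR-101a and rno-miR-101b, are paralogous members of the miR-101 family, and they were 2 of the 143 miRNAs that the deposited rat liver table holds, out of a larger panel assayed. They were chosen by name, from values of the same table: both were known to lie lower 6 h after partial hepatectomy (PHx) in untreated animals. Levels in untreated animals are therefore given as a description with no test, and the tests reported here were made in animals injected with saline or AM21. Untreated animals were added to that fit as a check, and the values of the pair printed from it carry no p. The miR-101 family is best known for repressing EZH2, the catalytic subunit of the Polycomb complex that trimethylates histone H3, and it also targets MCL1 and other growth-related transcripts. Its levels are often low in hepatocellular carcinoma.

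Liver miRNAs were measured with the NanoString nCounter assay, which counts molecules bound to a probe for each miRNA without amplification, in 48 animals in 16 groups of 3. The animals were male Sprague-Dawley rats, 8 to 14 wk old when feeding began. In 1 arm ethanol supplied 36% of the calories of a liquid diet (EtOH), in the other carbohydrate replaced it (CHO), and after 6 to 8 wk of pair-feeding 70% of the liver was removed by PHx. Untreated CHO and EtOH livers were taken at baseline (0 h) and 6, 24, or 72 h later. Further CHO and EtOH animals were given AM21, a locked nucleic acid oligonucleotide antisense to miR-21, or saline alone, by intraperitoneal injection 72 h before surgery and directly after it, and were collected at 0 h and 24 h. Whether baseline and later livers came from the same animals, and which animals were pair-fed together, is not stated in the sources used here. Each value was treated as a separate animal, so SDs and tests describe the spread between livers. The tissue was whole liver, and fewer cells of a type and less RNA per cell cannot be told apart in it.

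The mature sequences are shown because they set what the probes must separate. They are from RefSeq (GRCr8), written 5′ to 3′, with bases 2 to 8, the seed that pairs with target transcripts, in capitals. The table gives no arm, and the 3p arm, which carried the plain name in older nomenclature, was taken for each. The only other miRNA of the table sharing bases 2 to 7 with them was miR-144, an erythroid miRNA, among 124 of 143 names that matched a RefSeq sequence.
rno-miR-101a-3p: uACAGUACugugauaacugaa
rno-miR-101b-3p: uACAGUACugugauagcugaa
rno-miR-144-3p: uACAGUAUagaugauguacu
The 2 members had the same seed and were identical at 20 of 21 bases. The substitution from miR-101a to miR-101b was A16G, counted from 1 at the 5′ end of the mature sequence. Cross-hybridisation of the 2 probes was not tested. miR-144 had another base at the end of the seed, so its bases 2 to 8 were not those of the pair.

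The pair comes from separate loci, and the hairpins are shown because they differ far more than the mature RNAs do. The Mir101a hairpin lies at chr5:121081683-121081757 on the minus strand within the span of the uncharacterised gene LOC120102934, and the Mir101-2 hairpin, which gives miR-101b, lies at chr1:236273922-236274018 on the plus strand within the span of Rcl1, a gene for a factor in ribosomal RNA processing. Capitals mark the mature miRNA, at bases 47 to 67 of 75 and bases 61 to 81 of 97.
Mir101a hairpin: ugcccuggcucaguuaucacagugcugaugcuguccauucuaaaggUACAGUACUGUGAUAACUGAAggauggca
Mir101-2 hairpin: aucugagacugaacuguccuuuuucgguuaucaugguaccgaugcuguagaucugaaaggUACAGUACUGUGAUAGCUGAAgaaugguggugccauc

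Total counts per animal ranged from 58168 to 267582, with a median of 160078. miR-101a was counted 13 to 65 times per animal (median 40.5) and miR-101b 83 to 718 times (median 422.5). Counting error alone was thus wider for miR-101a: the lowest count, 13 in an EtOH 6 h animal, has a 95% Poisson interval of 6.92 to 22.2, and the lowest miR-101b count, 83, one of 66.1 to 103. These intervals cover counting error only. The table holds no control probes, so the distance of these counts from background was not tested. miR-124, a neural miRNA that should be low in liver, was counted 21 to 37 times in untreated CHO 6 h animals. In EtOH 6 h animals it was counted 23 to 54 times. miR-101a was counted 14 to 18 and 13 to 20 times in these groups, fewer than miR-124.

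Several animals stood apart. CHO 0 h saline replicate 3 had log2 CPM (counts scaled to a common total per animal, on the log2 scale) of 6.98 for miR-101a and 10.23 for miR-101b, from 15 and 147 counts, where miR-101a was 8.47 and 8.50, and miR-101b 11.57 and 11.67, in replicates 1 and 2. The hepatocyte miRNA miR-122 took 60.7% of counts in replicate 3, against 44.9% and 42.1% in replicates 1 and 2. That share ran from 42.1% to 68.8% over the 48 animals. By it replicates 1 and 2, at or near the low end, were the unusual animals, and replicate 3 was not. The untreated 0 h animals with replicate number 2 had the lowest miR-101b of their groups, and CHO replicate 2 also had the lowest total count, 58168. EtOH 0 h saline replicates 1 and 2 had miR-21 counts of 448 and 120, against 3469 in replicate 3, while all 12 AM21 animals had 15 to 32.

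In untreated CHO animals miR-101a had log2 CPM of 8.79, 8.26, and 8.54 at 0 h and 7.50, 7.22, and 7.16 at 6 h. It had 7.50, 8.30, and 8.45 at 24 h and 8.16, 8.03, and 7.92 at 72 h. All 3 animals at 6 h lay below all 3 at 0 h, and so did those at 72 h, whereas the 24 h animals overlapped the 0 h animals. The mean at 6 h was 1.24 ± 0.18 (SE) below that at 0 h, or 42.4% of the 0 h level. With the CHO 0 h saline animals added to the baseline the difference was -0.97. Of these, saline replicate 3, at 6.98, lay below all 3 animals at 6 h. By 72 h the mean was 8.03 ± 0.12 (SD, n = 3), against 8.53 ± 0.26 at 0 h, a log2 difference of -0.50, and -0.22 with the CHO 0 h saline animals added to the baseline.

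In untreated EtOH animals miR-101a had 8.53, 8.13, and 8.30 at 0 h and 6.88, 7.63, and 6.89 at 6 h. It had 7.21, 8.53, and 8.002 at 24 h and 8.03, 7.35, and 7.94 at 72 h. The groups again did not overlap at 6 h and at 72 h and overlapped at 24 h. The 72 h minus 0 h difference was -0.55, and -0.25 with the EtOH 0 h saline animals added to the baseline. The mean at 6 h was 44.0% of that at 0 h, a log2 difference of -1.18 ± 0.27 (SE). With the EtOH 0 h saline animals added to the baseline this difference was -0.88. Of these, saline replicate 3, at 7.49, lay below the highest animal at 6 h, at 7.63. At 6 h the EtOH minus CHO difference was -0.16 ± 0.27 (SE).

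miR-101b in untreated CHO animals had 11.76, 10.36, and 11.45 at 0 h and 10.23, 10.90, and 10.39 at 6 h. It had 11.16, 11.89, and 11.34 at 24 h and 11.60, 11.26, and 11.46 at 72 h. The 6 h animals overlapped the 0 h animals because replicate 2 at 0 h was low. The mean was 62.1% of the 0 h level at 6 h, and -0.69 ± 0.47 (SE) on the log2 scale. It came to -1.10 without that replicate, and ranged from -1.10 to -0.40 over each animal left out in turn.

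In untreated EtOH animals miR-101b had 11.75, 10.22, and 11.71 at 0 h and 9.96, 10.35, and 10.34 at 6 h. It had 11.20, 11.61, and 11.67 at 24 h and 11.48, 10.97, and 11.72 at 72 h. Replicate 2 at 0 h again lay within the range of the 6 h animals. The mean at 6 h was 49.6% of that at 0 h, a log2 difference of -1.01 ± 0.52 (SE), and -1.51 without that replicate. At 24 h and 72 h the EtOH means were 0.27 and 0.16 above 0 h, and -0.24 and -0.34 without that replicate.

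Non-overlap in this sense was not rare. At 6 h every animal lay below every 0 h animal for 10 of 143 miRNAs in CHO (6.99%) and 23 in EtOH (16.1%), and at 72 h for 26 in CHO (18.2%) and 23 in EtOH (16.1%). In the 72 h animals every value lay above every 6 h value for 32 miRNAs in CHO (22.4%) and 37 in EtOH (25.9%). miR-101b was among both of these, with 72 h minus 6 h differences of 0.93 ± 0.23 (SE) in CHO and 1.17 ± 0.26 in EtOH. miR-101a was among those of CHO, at 0.74 ± 0.13, and overlapped in EtOH, at 0.64 ± 0.33. Since the choice of members used the time course, nothing is read from these counts. The labels put the 6 h and 72 h animals in set 4 and the 0 h and 24 h animals in sets 1 to 3, so time and set cannot be told apart when 6 h or 72 h is compared with 0 h. What a set stands for was not stated, and the 72 h and 6 h animals share a set. Their depth differed, with summed counts of 308883 at 6 h and 581452 at 72 h in CHO. In EtOH these were 404261 and 686940. The part of depth in the 72 h minus 6 h differences was not tested.

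**Figure D1:**
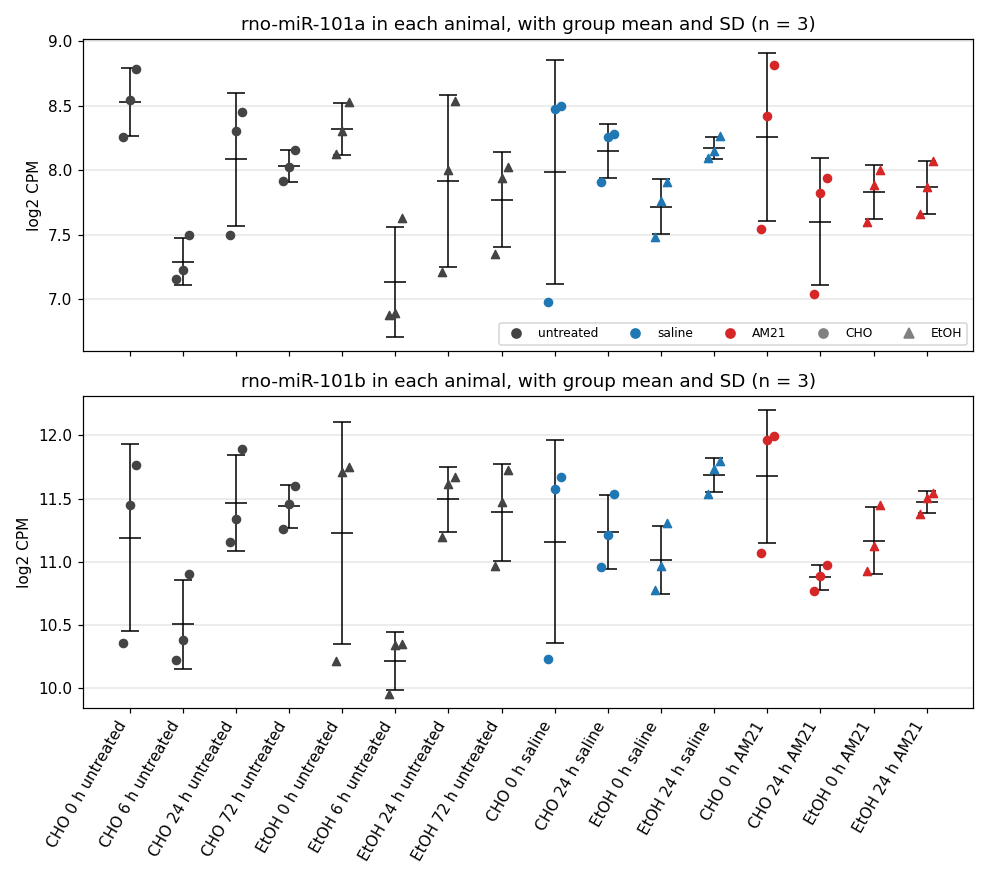
The log2 CPM of rno-miR-101a (top) and rno-miR-101b (bottom) in each of the 48 animals, by group, with circles for CHO and triangles for EtOH, grey for untreated, blue for saline, and red for AM21; bars are mean and SD (n = 3). The 6 h groups have the lowest means, miR-101a at 7.29 and 7.13, miR-101b at 10.51 and 10.22, in CHO and EtOH.

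Over the 16 groups miR-101a was highest in untreated 0 h animals, at 8.53 in CHO and 8.32 in EtOH. CHO 0 h AM21 (8.26), EtOH 24 h saline (8.17), CHO 24 h saline (8.15), CHO 24 h untreated (8.09), and CHO 72 h untreated (8.03) came next, then CHO 0 h saline (7.99), EtOH 24 h untreated (7.92), EtOH 24 h AM21 (7.87), and EtOH 0 h AM21 (7.83). EtOH 72 h untreated (7.77), EtOH 0 h saline (7.72), and CHO 24 h AM21 (7.60) preceded the 6 h groups, at 7.29 in CHO and 7.13 in EtOH. Each of the 15 pairs of neighbours in this order had overlapping ranges, and no gap exceeded the pooled SD of its 2 groups. The saline minus untreated difference at 0 h was -0.54 ± 0.52 (SE) in CHO and -0.60 ± 0.17 in EtOH, with no test.

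miR-101b followed another order above the 6 h groups. EtOH 24 h saline (11.69), CHO 0 h AM21 (11.68), EtOH 24 h untreated (11.49), EtOH 24 h AM21 (11.47), and CHO 24 h untreated (11.46) were highest, then CHO 72 h untreated (11.44), EtOH 72 h untreated (11.39), CHO 24 h saline (11.24), EtOH 0 h untreated (11.23), and CHO 0 h untreated (11.19). EtOH 0 h AM21 (11.17), CHO 0 h saline (11.16), EtOH 0 h saline (11.02), and CHO 24 h AM21 (10.88) followed, and the 6 h groups were lowest at 10.51 in CHO and 10.22 in EtOH. All 15 neighbouring pairs overlapped in range, and 1 gap exceeded the pooled SD, that of 0.37 between CHO 24 h AM21 and CHO 6 h untreated.

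Whether PHx changed the pair at 24 h was tested in the 24 injected animals. miR-101a ranged from 6.98 to 8.82 at 0 h (median 7.90) and from 7.04 to 8.28 at 24 h (median 8.01), with 12 animals each. miR-101b ranged from 10.23 to 11.99 at 0 h (median 11.22) and from 10.77 to 11.79 at 24 h (median 11.44). The times overlapped almost wholly for both. The 24 h minus 0 h difference was -0.0012 for miR-101a (95% interval -0.35 to 0.35, adjusted p = 0.995) and 0.064 for miR-101b (-0.24 to 0.37, adjusted p = 0.726). Without CHO 0 h saline replicate 3 these were -0.13 and -0.051. In the same fit 59 of 143 miRNAs (41.3%) passed the threshold, an adjusted p under 0.05 by limma, with 31 higher (21.7%) and 28 lower (19.6%) at 24 h. Without the 2 EtOH 0 h saline animals of low miR-21, an alternative chosen after the data were seen, 36 miRNAs passed and neither member did.

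Both members had a positive 24 h minus 0 h difference in saline animals and a negative one in AM21 animals. For miR-101a it was 0.31 ± 0.24 (SE) in saline and -0.31 ± 0.24 in AM21, and for miR-101b 0.37 ± 0.21 and -0.25 ± 0.21. Without CHO 0 h saline replicate 3 the saline values were 0.057 for miR-101a and 0.14 for miR-101b. Neither passed in either treatment, where 16 (11.2%) and 25 (17.5%) of 143 miRNAs did. The difference between treatments was -0.62 ± 0.33 for miR-101a and -0.62 ± 0.29 for miR-101b, each with an adjusted p of 0.970, and -0.37 and -0.39 without that animal. The 1 miRNA that passed this test (0.699%) was miR-21, the target of AM21, and it passed in 11 of 32 alternatives confined to injected animals.

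The 24 h response was then compared between diets. In CHO animals miR-101b ranged from 10.23 to 11.99 at 0 h (median 11.62) and from 10.77 to 11.54 at 24 h (median 10.96), and in EtOH animals from 10.78 to 11.45 at 0 h (median 11.04) and from 11.38 to 11.79 at 24 h (median 11.54), with 6 animals each. In EtOH only the lowest 24 h animal and the highest 0 h animal crossed, whereas the CHO times overlapped widely. The 24 h minus 0 h difference of miR-101b was -0.36 ± 0.21 (SE) in CHO (adjusted p = 0.200) and 0.49 ± 0.21 in EtOH (adjusted p = 0.105). For miR-101a it was -0.25 ± 0.24 (adjusted p = 0.445) and 0.24 ± 0.24 (adjusted p = 0.492), and -0.023 and 0.16 with the log10 of total count added as a covariate. Within the diets 37 (25.9%) and 15 (10.5%) of 143 miRNAs passed.

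The test of the difference between diets gave 0.85 ± 0.29 (SE) for miR-101b (95% interval 0.24 to 1.45, adjusted p = 0.251), with the third-smallest p of the 143 miRNAs, and 0.49 ± 0.33 for miR-101a (-0.20 to 1.18, adjusted p = 0.538), which was 0.19 with the covariate. With untreated animals added these differences were 0.563 for miR-101b and 0.341 for miR-101a. In untreated animals alone, with no test, miR-101b at 24 h minus 0 h was 0.27 in CHO and 0.27 in EtOH. By limma 0 of 143 miRNAs (0%) passed, 18 had an unadjusted p under 0.05, and 0 passed with voom weights. A single animal bore on these values. Without CHO 0 h saline replicate 3, which was low in both members, the miR-101b difference between diets was 1.08 with an adjusted p of 0.00717 and 11 miRNAs passed, and the miR-101a difference was 0.74 with an adjusted p of 0.105. Over the 32 alternatives confined to injected animals the adjusted p for miR-101b ranged from 0.00717 to 0.459. Without that animal miR-101b also passed within each diet, at -0.59 in CHO (adjusted p = 0.0105) and 0.49 in EtOH (adjusted p = 0.0385). The animal left out is a CHO animal, so the EtOH difference itself was unchanged from the full fit. The others of these alternatives gave adjusted p up to 0.468 in CHO and 0.245 in EtOH.

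**Figure D2:**
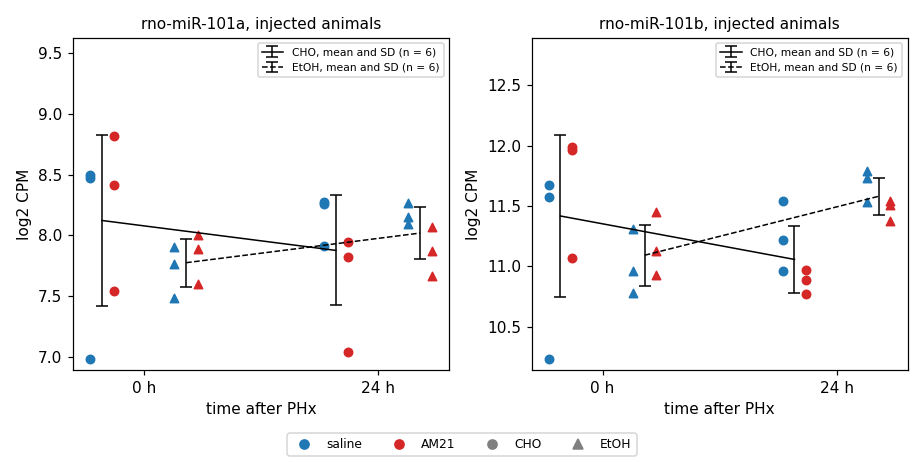
The log2 CPM of rno-miR-101a (left) and rno-miR-101b (right) in the 24 injected animals at 0 h and 24 h after PHx, by diet and treatment, with mean and SD of 6 animals joined by a solid line for CHO and a dashed line for EtOH. For miR-101b the mean went from 11.42 to 11.06 in CHO and from 11.09 to 11.58 in EtOH.

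EtOH-fed and CHO-fed injected animals were compared for the effect of diet. miR-101a ranged from 7.49 to 8.26 in EtOH (median 7.90) and from 6.98 to 8.82 in CHO (median 8.10), and miR-101b from 10.78 to 11.79 (median 11.41) and from 10.23 to 11.99 (median 11.14), with 12 animals each. The EtOH range lay within the CHO range for both. The EtOH minus CHO difference was -0.10 for miR-101a (95% interval -0.45 to 0.24, adjusted p = 0.769) and 0.099 for miR-101b (-0.20 to 0.40, adjusted p = 0.738), and 5 of 143 miRNAs (3.50%) passed. Without CHO 0 h saline replicate 3 the differences were -0.23 and -0.017, and with depth (log10 total count) as a covariate 0.051 and 0.16.

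By time, the diet difference was -0.35 ± 0.24 (SE) for miR-101a and -0.32 ± 0.21 for miR-101b at 0 h, where 12 miRNAs (8.39%) passed and neither member did, and -0.041 and -0.20 with the covariate. At 24 h it was 0.14 ± 0.24 and 0.52 ± 0.21, with adjusted p of 0.822 and 0.462. At that time 0 of 143 miRNAs (0%) passed by limma, 14 had an unadjusted p under 0.05, and 0 passed with voom weights. Without CHO 0 h saline replicate 3 both members passed as lower in EtOH at 0 h, at -0.60 for miR-101a (adjusted p = 0.0355) and -0.56 for miR-101b (adjusted p = 0.0224), and 27 miRNAs passed. Over the same 32 alternatives these adjusted p reached 0.944 and 0.796.

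With AM21, miR-21 was -6.60 ± 0.31 (SE) on the log2 scale against saline (adjusted p = 1.02e-13), and -7.22 without the 2 EtOH 0 h saline animals of low miR-21. Whether its 15 to 32 counts in AM21 animals lie above background was not tested. miR-101a ranged from 7.04 to 8.82 in AM21 (median 7.88) and from 6.98 to 8.50 in saline (median 8.12), and miR-101b from 10.77 to 11.99 (median 11.25) and from 10.23 to 11.79 (median 11.42). The treatments overlapped in nearly all of their range. The AM21 minus saline difference was -0.12 for miR-101a (95% interval -0.46 to 0.23, adjusted p = 0.790) and 0.025 for miR-101b (-0.28 to 0.33, adjusted p = 0.964), and 5 of 143 miRNAs (3.50%) passed. At 0 h it was 0.19 ± 0.24 and 0.33 ± 0.21, where 4 miRNAs (2.80%) passed. Without CHO 0 h saline replicate 3 it was -0.24 and -0.091 over both times, and -0.057 and 0.10 at 0 h. At 24 h it was -0.42 ± 0.24 and -0.29 ± 0.21, where 3 (2.10%) passed. Diet by treatment gave 0.042 ± 0.33 for miR-101a and -0.11 ± 0.29 for miR-101b, and 0 of 143 (0%) passed by limma, with 9 at an unadjusted p under 0.05 and 0 with voom weights.

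The difference miR-101a minus miR-101b within an animal does not depend on the scaling between animals. On the log2 scale untreated CHO animals had -2.66 ± 0.49 (SD, n = 3) before PHx, then -3.21 ± 0.47 at 6 h, -3.38 ± 0.43 at 24 h, and finally -3.40 ± 0.16 at 72 h. Untreated EtOH animals had -2.91 ± 0.71, -3.08 ± 0.36, -3.58 ± 0.46, and -3.62 ± 0.17 in the same order. Replicate 2 had the highest 0 h value in both diets (-2.10 in CHO, -2.09 in EtOH), and without it the 0 h means were -2.94 and -3.32, so that in EtOH 0 h lay below 6 h. These are differences between probes whose efficiencies may differ, so they give no ratio of molecules. The 12 injected animals at 24 h had -3.37 ± 0.32 (SD) and the 12 at 0 h -3.31 ± 0.27, with a two-sided permutation p of 0.581 before and after adjustment. It was -3.44 ± 0.30 in EtOH and -3.24 ± 0.25 in CHO animals (permutation p = 0.0882, adjusted over the 3 contrasts 0.265), and -3.41 ± 0.33 with AM21 and -3.27 ± 0.23 with saline (permutation p = 0.241, adjusted 0.362).

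Whether the members varied together within groups was tested in the 24 injected animals, as deviations from group means. Pearson's r was 0.77 (p = 0.0322 by two-sided permutation within groups, 0.0966 adjusted over 3 relations) and Spearman's rho 0.55 (permutation p = 0.0482, adjusted 0.145), so neither passed after adjustment. Without the 2 animals farthest from the median of miR-101a, CHO 0 h AM21 replicate 3 and CHO 0 h saline replicate 3, r was 0.51. It was 0.52, 0.42, and 0.96 within sets 1, 2, and 3, with 8 animals each. In the 24 untreated animals, with no test, r was 0.50. Each animal's scaling enters both values, and cross-hybridisation of the 2 probes, whose targets differ at 1 base, was not tested. With log10 total count r was -0.33 for miR-101a (permutation p = 0.185, adjusted 0.278) and -0.15 for miR-101b (permutation p = 0.578, adjusted 0.578). Spearman's rho was -0.26 (permutation p = 0.304, adjusted 0.456) and -0.15 (permutation p = 0.558, adjusted 0.558), and r was -0.21 and -0.23 without the 2 animals farthest from the median of the log10 total count deviations, CHO 0 h AM21 replicate 2 and EtOH 0 h AM21 replicate 2. Within sets 1 to 3 r with total count was -0.12, 0.056, and -0.12 for miR-101a. For miR-101b it was 0.34, 0.42, and -0.14, so no direction held across sets.

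miR-144, the relative in bases 2 to 7, had a 24 h minus 0 h difference of -0.92 ± 0.34 (SE) in the injected animals (adjusted p = 0.0353). Its untreated 6 h minus 0 h difference was -0.022 in CHO and -1.16 in EtOH, and over the 16 group means its Pearson r was 0.13 with miR-101a and 0.12 with miR-101b.

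Other miRNAs reported to target EZH2 were read from a list, of which 11 of 13 are in the table. The 11 include let-7a, let-7b, let-7c, let-7d, let-7e, let-7f, and let-7i, members of 1 family, so they are not separate observations. At 24 h in the injected animals 4 of the 11 fell and 0 rose, where 28 of all 143 fell (19.6%) and 31 rose (21.7%), and the median difference was -0.21, against 0.068 over all 143. miR-26a fell by 0.46 ± 0.15 (SE, adjusted p = 0.0183), miR-98 by 0.43 ± 0.080 (adjusted p = 0.000448), and let-7c by 0.28 ± 0.083 (adjusted p = 0.0123). The fourth that fell, let-7f, is outside the rule for named miRNAs and was named after its values were seen, with a drop of 0.22 ± 0.079 (adjusted p = 0.0339). let-7b, which the rule names, did not pass, at -0.23 ± 0.096 (adjusted p = 0.0584). With diet 1 of the 11 passed, against 5 of 143 (3.50%), and with AM21 0, also against 5 of 143 (3.50%), where for AM21 2 of the 11 had an unadjusted p under 0.05 and 0 passed with voom weights. In untreated animals at 6 h the list's median was 0.062 in CHO and 0.042 in EtOH, beside 0.042 and 0.024 over all, and 4 of the 11 lay below 0 h in each diet, as did 64 of 143 in CHO and 69 in EtOH.

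miRNAs that MYC, an early driver of hepatocyte growth after PHx, is known to repress are in the table for 23 of 24 names. At 24 h in the injected animals 4 rose and 5 fell, so that 9 of the 23 passed, beside 59 of all 143 (41.3%), and the median was -0.11, against 0.068 over all. miR-34a rose by 0.75 ± 0.13 (SE, adjusted p = 0.000167), miR-29b by 0.55 ± 0.16 (adjusted p = 0.0103), and miR-30a by 0.52 ± 0.12 (adjusted p = 0.00393). The fourth that rose, miR-16, is outside the rule and was named after its values were seen, at 0.28 ± 0.079 (adjusted p = 0.0101). Of the 5 that fell, miR-26a, let-7c, and let-7f are given above, and the others, named in the same way, were miR-146a at -0.31 ± 0.10 (adjusted p = 0.0227) and miR-30c at -0.25 ± 0.073 (adjusted p = 0.0103). miR-26a is in both lists, which share 9 members, 81.8% of the first and 39.1% of the second. With diet 2 of the 23 passed and with AM21 0, each beside 5 of 143 (3.50%), and with AM21 4 of the 23 had an unadjusted p under 0.05 and 0 passed with voom weights. In untreated animals at 6 h the median was 0.022 in CHO and -0.059 in EtOH, with 11 and 13 of the 23 below 0 h, beside 64 and 69 of 143. miR-29b, at -0.78 in CHO and -0.84 in EtOH, was below 0 h at 6 h as the pair was, and above 0 h at 24 h in the injected animals.

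The miRNAs whose 16 group means followed miR-101a most closely were miR-101b itself (Pearson r 0.77), miR-26b (0.69), the endothelial miR-126 (0.68), miR-3559-5p (0.64), and miR-350 (0.63), and the least alike were let-7d and miR-351 (-0.66 each). For miR-101b they were miR-19a, of the growth-promoting miR-17-92 cluster (0.80), the hepatocyte miR-192 (0.80), miR-29c (0.78), miR-3559-5p (0.77), and miR-101a (0.77), and the least alike were miR-125b-5p (-0.80) and miR-125a-5p (-0.84). miR-3559-5p was thus in both lists of 5. These r are over 16 points that share the scaling of each animal and carry no test. For the r between the members, cross-hybridisation of their probes was not tested. miR-19a was -1.53 and miR-3559-5p -1.09 at 6 h against 0 h in untreated CHO animals, and -1.85 and -1.10 in EtOH. At 24 h in the injected animals miR-19a rose by 0.95 (adjusted p = 0.00493), which neither member did.

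Cell type markers were read from short lists. miR-122, a hepatocyte miRNA, took 42.1% to 68.8% of counts in the 48 animals. The log2 of the summed CPM of 3 of 3 hepatocyte miRNAs in untreated CHO animals was 18.78 at 0 h and 19.15 at 6 h, and in EtOH animals 19.20 and 19.34. This sum is led by miR-122, and 2 of the 3 lay below 0 h at 6 h in each diet, with medians of -0.15 and -0.25. miR-192 was at -0.56 in CHO and -0.82 in EtOH. In injected CHO animals the hepatocyte sum went from 18.71 at 0 h to 19.31 at 24 h with saline, and from 19 to 19.57 with AM21. In injected EtOH animals it went from 19.18 to 19.29 with saline and from 19.34 to 19.23 with AM21. The endothelial marker, miR-126 alone, was 14.97 at 0 h and 14.19 at 6 h in CHO and 15.03 and 14.02 in EtOH, and was thus lower at 6 h as the pair was. At 24 h in the injected animals miR-126 fell by 0.24 (adjusted p = 0.0183), which neither member did. The same measure for 4 of 5 stellate and mesenchymal miRNAs, led by miR-145, was 14.41 at 0 h and 14.67 at 6 h in CHO and 14.24 and 14.70 in EtOH, with 2 of the 4 below 0 h at 6 h in each diet and medians of -0.13 and 0.00033.

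The 2 of 2 red blood cell miRNAs, led by miR-144, were 10.85 and 10.82 in CHO and 11.23 and 10.27 in EtOH, at 0 h and 6 h. The 3 of 4 leukocyte miRNAs, led by miR-142-3p, were 11.47 and 11.55 in CHO and 11.57 and 11.44 in EtOH. Muscle (2 of 4, led by miR-1) and neural (1 of 2, miR-124) markers were at 9.80 and 9.98 and at 8.02 and 8.18 in CHO, and at 9.63 and 9.85 and at 7.98 and 8.01 in EtOH. Both kinds were listed as ones that should be low in liver. At 6 h the miR-101a means, 7.29 in CHO and 7.13 in EtOH, lay below those of miR-124. How far background enters the 6 h level of miR-101a was not tested. None of the markers in the table was at 0 counts, and the lowest count was 14. The part of these cell types in the levels of miR-101a and miR-101b was not tested.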

How the data were processed

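The authors deposited log2 CPM for 143 miRNAs in 48 animals. Per the study's methods, counts had been scaled by the trimmed mean of M values and transformed by voom. The filter that left these miRNAs is not given in the sources used here. Counts were recovered from the deposited log2 values and voom's pseudocount of 0.5, and all 6864 values came within 0.001 of a whole number. Columns left unused numbered 0.

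For the 24 injected animals, 8 group means were fitted for all 143 miRNAs in limma (version 3.58.1, R 4.3.3; lmFit, then eBayes), with Benjamini-Hochberg adjustment per contrast and calls at an adjusted p under 0.05. Permutation tests (100000 resamples, two-sided) used scipy 1.17.1. The fit was tested on simulated data.

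The members and lists were chosen with earlier results of these data known. Named miRNAs were the pair, those sharing bases 2 to 7 with miR-101a, miR-21 and miR-122 as checks, the 5 highest and 2 lowest Pearson r of the 16 group means with each member, and at most 4 members of the EZH2 and MYC lists with the largest absolute 24 h minus 0 h difference. The contrasts within each diet, the relations within groups, and alternatives for the former and for the interactions, were added after the data were seen. Alternatives used RLE size factors, scaling by the 100 highest probes or without miR-21, a minimum of 50 counts in 3 animals, voom weights, the set number as a block, log10 total count as a covariate, added untreated animals, and leaving out each animal.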

Additional observations from a re-analysis of the deposited data

Results flagged for a closer look

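The 24 h response of miR-21, the target of AM21, differed between AM21 and saline animals by -2.75 ± 0.63 (SE) on the log2 scale (limma adjusted p = 0.0345): it was 2.52 in saline animals and -0.23 in AM21 animals. This value for miR-21, time by treatment, kept its direction but passed the test in 11 of 32 alternatives confined to injected animals, with adjusted p from 3.85e-07 to 0.211, and it did not pass with voom weights, with the set as a block, and with depth as a covariate, among others. Without EtOH 0 h saline replicates 1 and 2, whose miR-21 counts of 448 and 120 stood far below the 3469 of replicate 3, it was -1.51 (adjusted p = 0.0165), and the response in saline animals was 1.28. All 12 AM21 animals had 15 to 32 counts of miR-21, and whether these lie above background was not tested, so their response of -0.23 and the size of the difference rest on counts near the lowest of the table. Whether these 2 saline animals carry the right label was not tested. No such difference passed the test for miR-101a or miR-101b.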

How the results depend on the processing

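Neither member passed the test for time, diet, or AM21 averaged over the injected animals under any of the 32 alternatives per result confined to them, and near-zero differences changed sign freely. The value for miR-101a, 24 h minus 0 h, -0.0012, was 0.016 scaled without miR-21, 0.013 with voom weights, 0.069 with log10 total count as a covariate, and 0.057 without the 2 EtOH 0 h saline animals of low miR-21. With the covariate, the value for miR-101a, EtOH minus CHO, was 0.051 and that for miR-101a, diet by treatment, was -0.0043, while that for miR-101a, EtOH minus CHO, 0 h, went from -0.348 to -0.041, that for miR-101a, 24 h minus 0 h, CHO, from -0.246 to -0.023, and that for miR-101a, time by diet, from 0.490 to 0.185. The value for miR-101b, AM21 minus saline, was -0.0082 scaled without miR-21, and that for miR-101b, diet by treatment, was 0.010 without the 2 saline animals. With untreated animals added, AM21 was compared with the mean of saline and untreated animals, which is another comparison. In place of AM21 minus saline it gave -0.219 (miR-101a) and -0.010 (miR-101b), and at 0 h -0.093 (miR-101a). In place of diet by treatment it gave 0.076 (miR-101a) and -0.049 (miR-101b). The same addition gave -0.142 (miR-101a) and 0.132 (miR-101b) for 24 h minus 0 h. For EtOH minus CHO at 0 h it gave -0.302 (miR-101a) and -0.205 (miR-101b). The causes were not tested.

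Leaving out each animal in turn gave these ranges. For 24 h minus 0 h they were -0.126 to 0.069 (miR-101a) and -0.051 to 0.128 (miR-101b), in CHO -0.497 to -0.105 (miR-101a) and -0.591 to -0.231 (miR-101b), in EtOH 0.428 to 0.561 (miR-101b), in saline 0.057 to 0.437 (miR-101a) and 0.143 to 0.502 (miR-101b), and in AM21 -0.489 to -0.169 (miR-101a) and -0.397 to -0.167 (miR-101b). For EtOH minus CHO they were -0.228 to -0.033 (miR-101a) and -0.017 to 0.163 (miR-101b), at 24 h 0.0015 to 0.228 (miR-101a), and at 0 h -0.598 to -0.209 (miR-101a) and -0.556 to -0.197 (miR-101b). For AM21 minus saline they were -0.241 to -0.027 (miR-101a) and -0.091 to 0.1002 (miR-101b), and at 0 h -0.057 to 0.372 (miR-101a) and 0.103 to 0.486 (miR-101b). For time by treatment they were -0.797 to -0.368 (miR-101a) and -0.771 to -0.388 (miR-101b), for time by diet 0.349 to 0.741 (miR-101a) and 0.719 to 1.079 (miR-101b), and for diet by treatment -0.136 to 0.293 (miR-101a) and -0.260 to 0.122 (miR-101b). For untreated animals against 0 h, miR-101a had -0.630 to -0.152 in CHO and -0.711 to -0.050 in EtOH at 24 h and -0.675 to -0.335 in EtOH at 72 h. miR-101b in CHO had -1.103 to -0.3999 at 6 h, -0.145 to 0.557 at 24 h, and -0.171 to 0.532 at 72 h. For miR-101b in untreated EtOH animals against 0 h they were -1.515 to -0.748 at 6 h, -0.238 to 0.529 at 24 h, and -0.342 to 0.425 at 72 h. The calls gained by either member all came without CHO 0 h saline replicate 3.

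Counts of miRNAs past the threshold moved more. Leaving out each animal gave 2 to 14 for diet and 1 to 27 for diet at 0 h, 4 to 9 for AM21 and 4 to 11 for AM21 at 0 h, 0 to 1 for time by treatment, 0 to 11 for time by diet, and for 24 h minus 0 h 9 to 25 in saline, 13 to 30 in AM21, and 8 to 25 in EtOH animals. Without the 2 EtOH 0 h saline animals, which leaves 1 animal in that group, assumed to vary like the others, the counts were 36 for 24 h minus 0 h, 5 in saline, 16 in AM21, and 0 in EtOH animals, 2 for diet and 0 at 0 h, and 2 for AM21 at 0 h. With the covariate they were 2 for diet and 1 at 0 h, 17 for 24 h minus 0 h in CHO, and 0 for time by treatment. With untreated animals added, for AM21 as part of the comparator, they were 20 for diet, 21 at 0 h and 2 at 24 h, 8 for AM21, 28 for 24 h minus 0 h in EtOH, and 0 for time by treatment. Scaling by the 100 highest probes gave 6 for diet at 0 h, and voom weights 0 for time by treatment. Removal of the 2 saline animals, added alternatives for the interactions and the contrasts within diets, and scaling without miR-21 outside the AM21 comparison were chosen after seeing the data.

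The set number did not pair the animals in most pairs of groups: in 2 of 12 all 3 correlations of same-numbered animals were over 0.1. These were EtOH 0 h with EtOH 24 h saline (0.417, 0.110, and 0.335) and CHO 24 h with EtOH 24 h saline (0.237, 0.204, and 0.198). As a replicate block the set number gave 61 calls for 24 h minus 0 h and 0 for time by treatment. For time by diet miR-101b was 0.847 (limma adjusted p = 0.236). It changed no call of either member. Permutation within sets, exact, gave adjusted p of 0.589, 0.273, and 0.365 for miR-101a minus miR-101b. At 13 to 65 counts, counting error alone was wider for miR-101a, at 15.8% in the median animal against 4.87% for miR-101b. Its part in the spread between animals was not tested.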
